A study of Mus musculus with 6 samples.

Results

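The genes described here carry fatty acids into the muscle cell and oxidise them in its mitochondria: Cd36, Fabp3, Lpl, Cpt1b, Cpt2, Acadl, Acadm, Acadvl, Hadha and Hadhb. They were chosen by name, and every probe set (a group of short array probes read as 1 value) annotated with one of these 10 symbols was taken. That gave 18 probe sets, of which 17 carry 1 symbol and represent 9 of the 10 genes, among 18193 genes with such a probe set on the array. The last probe set lists Cpt1b together with its neighbour Chkb, a choline kinase gene, and Gm44502, a transcript annotated across both. It is therefore reported as a shared signal and not as the level of Cpt1b.

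Per the labels, RNA came from the whole hind limb musculature of single mice at 4 weeks of age, with 1 Affymetrix array per mouse. The laminin alpha 2 chain deficient group had 3 mice and the wild type group had 3 mice. The labels name no allele, strain or treatment for either group. The laminin alpha 2 chain is a subunit of the laminin that anchors muscle fibres to their basement membrane. The comparison asks how the muscle of the deficient mice differs from that of the wild type mice, and the values are linear signals per probe set. A log2 fold change here is the mean of log2(signal + 16) in deficient libraries minus that in wild type libraries, which understates the change of dim probe sets.

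Muscle draws fatty acids from the blood. Lipoprotein lipase (Lpl) frees them from circulating triglyceride at the capillary wall, the scavenger receptor Cd36 aids their entry, and Fabp3, the heart and muscle fatty acid binding protein, carries them through the cytosol. Carnitine palmitoyltransferase 1 on the outer mitochondrial membrane (Cpt1b is its muscle form) and Cpt2 on the inner membrane pass long chains into the matrix as carnitine esters. There each turn of beta oxidation opens with an acyl-CoA dehydrogenase, with Acadvl, Acadl and Acadm serving very long, long and medium chains. For long chains the other steps are carried out by the mitochondrial trifunctional protein, whose alpha and beta subunits are encoded by Hadha and Hadhb.

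Hadha and Hadhb, whose products form 1 enzyme complex, also lie head to head in the genome, so their promoter windows are shown first. In RefSeq sequences of the mouse build GRCm38.p6, the annotated starts lie 273 bases apart on opposite strands of chromosome 5. The windows, each with 250 bases before and 50 after the start, share 228 bases, chr5:30155003-30155230. Capitals mark the shared bases, which read as reverse complements of each other. The Hadha window is chr5:30154931-30155230 on the minus strand and the Hadhb window is chr5:30155003-30155302 on the plus strand.
Hadha: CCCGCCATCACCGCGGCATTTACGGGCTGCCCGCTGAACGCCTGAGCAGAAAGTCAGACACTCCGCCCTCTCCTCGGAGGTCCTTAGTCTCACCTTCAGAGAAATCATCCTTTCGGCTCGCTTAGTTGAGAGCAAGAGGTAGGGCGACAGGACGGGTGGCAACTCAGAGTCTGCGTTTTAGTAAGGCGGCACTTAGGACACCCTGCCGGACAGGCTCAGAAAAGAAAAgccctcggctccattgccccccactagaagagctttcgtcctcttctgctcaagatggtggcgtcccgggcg
Hadhb: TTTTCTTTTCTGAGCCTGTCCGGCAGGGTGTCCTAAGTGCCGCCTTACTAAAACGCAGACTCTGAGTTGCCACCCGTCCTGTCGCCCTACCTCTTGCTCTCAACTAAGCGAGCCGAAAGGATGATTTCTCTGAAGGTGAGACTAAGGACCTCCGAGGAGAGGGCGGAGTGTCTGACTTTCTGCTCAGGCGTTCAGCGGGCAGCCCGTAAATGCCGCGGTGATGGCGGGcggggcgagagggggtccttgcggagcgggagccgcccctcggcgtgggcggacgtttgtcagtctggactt

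The libraries differed in ways that touch the results. Array medians lay between 20 and 26.1 signal units. Lama2 read 82, 31.1 and 140.4 in the deficient libraries, against 428.7, 415.6 and 326.2 in the wild type libraries, in the direction of the labels. The Y-linked transcript Eif2s3y read 414.6, 573.7 and 9.1 in deficient replicates 1, 2 and 3, against 474.1, 466.8 and 10.7 in wild type replicates 1, 2 and 3. Xist, which is transcribed from an inactive X chromosome, read 396.3, 16.1 and 1839.1 in deficient libraries and 1.4, 19.1 and 1163.1 in wild type libraries, so that deficient replicate 1 had signal for both transcripts. Whether its RNA came from 1 mouse, as labelled, was not tested. For actin, a control read at both transcript ends as a sign of RNA quality, the 5 prime signal divided by the 3 prime signal was 0.819, 0.51 and 0.573 in deficient libraries, against 1.15, 1.05 and 1.04 in wild type libraries. The Gapdh control ratio overlapped, at 1.15, 0.886 and 1.01 in deficient libraries and 0.961, 1.19 and 1.15 in wild type libraries. The transferrin receptor control ratio was 0.214, 0.0617 and 0.0669 in deficient libraries, against 0.134, 0.241 and 0.128 in wild type libraries. For pyruvate carboxylase it was 0.0597, 0.0881 and 0.192, against 0.0357, 0.242 and 0.125. The groups overlapped for both. Probe sets for all 7 myofibre markers were on the array. Their signals summed to 58312.5, 78233.6 and 71928.3 in deficient libraries, against 76128.6, 71733.1 and 75448.6 in wild type libraries. The sum was lowest in deficient replicate 1. The markers differed in direction. Of the 7, 5 had a negative log2 fold change, among them Mb at -0.34, while Des and Myh1 lay at 0.38 and 0.20.

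All 9 genes with a probe set of their own had a negative log2 fold change by their brightest probe set (7 of 9 under quantile normalization, with Cd36 and Lpl positive), but 0 of the 9 passed limma's test at a Benjamini-Hochberg adjusted p under 0.05. Of all 13104 genes tested, 2.69% were called, and 47.4% had a negative fold change. The median over the 9 genes was -0.37, beside 0.02 over all genes tested. At an unadjusted p under 0.05 stood 2 of the 9, Cpt2 and Hadhb, where 18.9% of all genes did, 9.49% as lower. These same genes were the only 2 of the 9 whose deficient values all lay below the wild type values, which held for 12.4% of all genes. Enzymes of the mitochondrial steps lay between -0.35 and -0.53, and the uptake genes Cd36, Lpl and Fabp3 lay at -0.01, -0.04 and -0.51. A difference between these sets was not tested. Differences in the share of fibres in the tissue and in RNA per fibre cannot be told apart in these bulk samples.

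**Figure D1:**
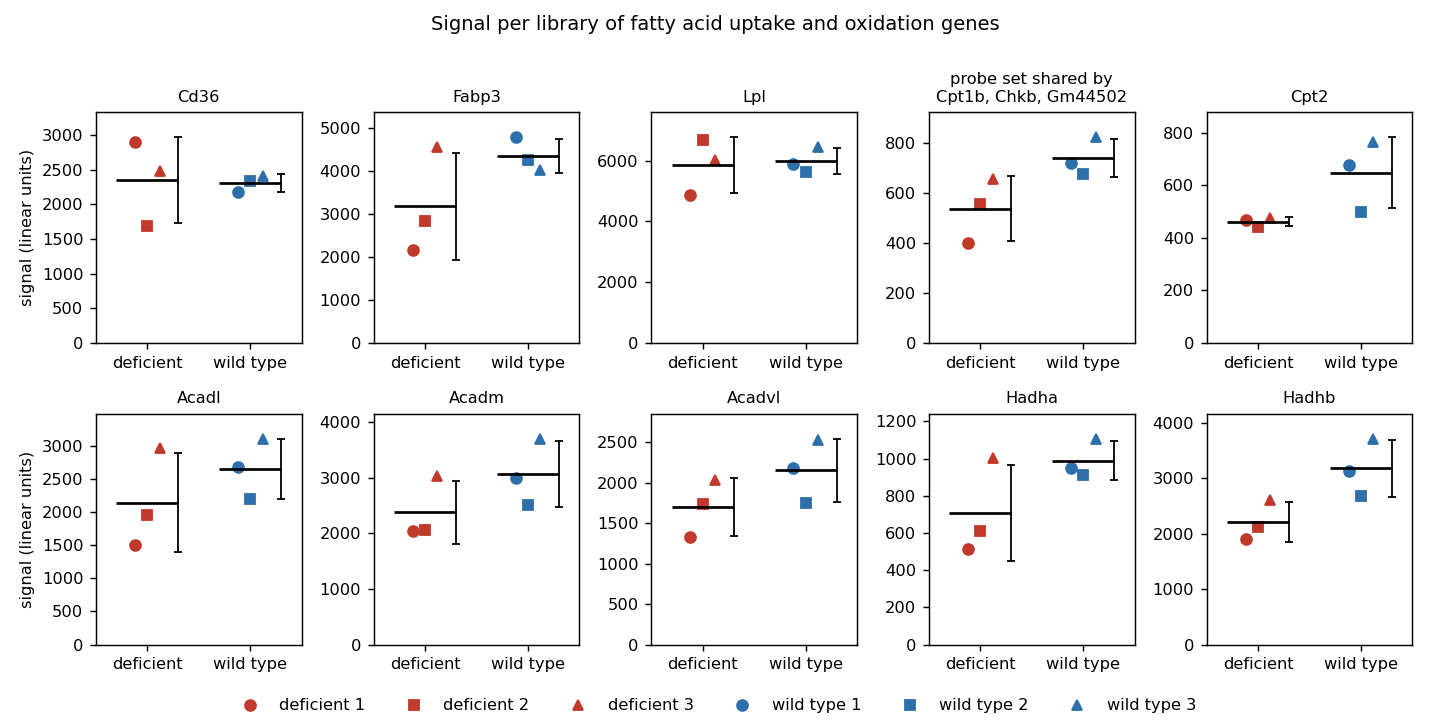
Signal in linear units of each library for the 9 genes by their brightest probe set and for the probe set shared by Cpt1b, Chkb and Gm44502, deficient on the left and wild type on the right of each panel. Horizontal lines are means and error bars are SD (n = 3 per group), and only Cpt2, Hadhb and the shared probe set have groups that do not overlap.

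Among the uptake genes, Cd36 is measured by 3 probe sets. The brightest read 2896.8, 1683.6 and 2472.5 in deficient libraries, against 2169.6, 2341.7 and 2411.5 in wild type libraries. Deficient values lay on both sides of the wild type ones, with means of 2351 ± 616 in deficient and 2308 ± 125 in wild type libraries (SD, n = 3 each). The log2 fold change was -0.01 with a 95% interval of -0.46 to 0.44 (limma adjusted p = 0.99). The other Cd36 probe sets had fold changes of 0.09 and 0.15, of the opposite sign, and neither passed (limma adjusted p = 0.821 and 0.751 over all probe sets).

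Lpl read 4878, 6680.9 and 6014.3 in deficient muscle, against 5880.4, 5619.4 and 6456.5 in wild type muscle. Its groups overlapped, with means of 5858 ± 912 in deficient and 5985 ± 428 in wild type muscle (SD, n = 3 each). The log2 fold change was -0.04, with an interval of -0.37 to 0.29 (limma adjusted p = 0.913). The dimmer of its 2 probe sets gave -0.10 with an interval of -0.45 to 0.25. Of the 9 genes, Lpl had the narrowest interval. The signs of both Cd36 and Lpl turn positive, at 0.12 and 0.02, under quantile normalization.

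Fabp3 is the cytosolic carrier among the uptake genes. It read 2158.3, 2822.9 and 4562.2 in deficient libraries, against 4779.8, 4240.6 and 4021 in wild type libraries. Deficient replicates 1 and 2 lay at 49.6% and 64.9% of the wild type mean, and deficient replicate 3 at 105%. Means were 3181 ± 1241 in deficient and 4347 ± 390.5 in wild type muscle (SD, n = 3 each), with a log2 fold change of -0.51 and an interval of -1.05 to 0.03 (limma adjusted p = 0.286). Without deficient replicate 3 the fold change was -0.81 and passed (limma adjusted p = 0.026). With any other single library left out, Fabp3 did not pass (limma adjusted p = 0.355 to 0.532). The other Fabp3 probe set was dim, at 23.8, 45.6 and 60.2 in deficient and 52.8, 41.4 and 49.5 in wild type libraries.

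For the carnitine shuttle, Cpt2 gave the most even picture. It read 468.2, 442.5 and 476.3 in deficient libraries, against 676.5, 500.3 and 766.4 in wild type libraries. All 3 deficient values lay within 68.3% to 73.5% of the wild type mean, and the spread was in the wild type group, with 462 ± 17.6 in deficient and 648 ± 135 in wild type muscle (SD, n = 3 each). The log2 fold change was -0.45, with an interval of -0.89 to -0.01 (limma adjusted p = 0.25). A second Cpt2 probe set, of a kind whose probes can match other transcripts, was dim in both groups and gave -0.02. The probe set shared by Cpt1b, Chkb and Gm44502 read 399.4, 557.3 and 655.7 in deficient libraries, against 722, 675.9 and 824.1 in wild type libraries. Its groups did not overlap, as held in this direction for 11.1% of the 27026 probe sets tested. The log2 fold change of that probe set was -0.47 with an interval of -0.95 to 0.00 (limma adjusted p = 0.306 over all probe sets).

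The 3 acyl-CoA dehydrogenase genes had similar fold changes and overlapping groups. Acadvl, for very long chains, read 1326.1, 1737 and 2033.1 in deficient libraries, against 2186.7, 1750 and 2529.3 in wild type libraries. Deficient replicate 2 reached 80.6% of the wild type mean, just under wild type replicate 2. Its log2 fold change was -0.35, with an interval of -0.80 to 0.11 (limma adjusted p = 0.392).

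Acadl, for long chains, read 1502.1, 1959.4 and 2976.9 in deficient libraries, against 2681.6, 2196.6 and 3100.5 in wild type libraries. Here deficient replicate 3 lay above wild type replicates 1 and 2. The log2 fold change was -0.35, with an interval of -0.90 to 0.20 (limma adjusted p = 0.474). The other Acadl probe set had a mean signal below the filter of 15 and was not tested, with 0.3, 1.8 and 2.4 in deficient and 2, 20.3 and 17.1 in wild type libraries. Acadm, the medium chain enzyme, read 2036.9, 2068.6 and 3035.6 in deficient libraries, against 2999.9, 2515.8 and 3707.4 in wild type libraries. Its log2 fold change was -0.37, with an interval of -0.83 to 0.08 (limma adjusted p = 0.358).

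The trifunctional protein genes, whose overlapping promoter windows are printed above, had fold changes of -0.53 and -0.52. Hadha read 512.4, 611.1 and 1000.5 in deficient libraries, against 946.8, 912.3 and 1106.9 in wild type libraries. Deficient replicates 1 and 2 lay at 51.8% and 61.8% of the wild type mean, and deficient replicate 3 at 101% of it. The interval was -1.07 to 0.02 (limma adjusted p = 0.28), and without deficient replicate 3 the fold change of Hadha was -0.80 and passed (limma adjusted p = 0.0307). Hadha did not pass with any other single library left out (limma adjusted p = 0.418 to 0.501).

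Hadhb read 1901.7, 2115.6 and 2617 in deficient libraries, against 3141.4, 2676.3 and 3716.5 in wild type libraries. Every deficient value lay below every wild type value, with the closest pair at 2617 in deficient replicate 3 and 2676.3 in wild type replicate 2. The log2 fold change had an interval of -0.92 to -0.12 and the smallest p of the 9 genes (limma adjusted p = 0.153). A second bright Hadhb probe set, of the kind whose probes can match other transcripts, read 1470.9, 1888.1 and 2801.8 in deficient libraries, against 2230.4, 2422.3 and 3227 in wild type libraries. It had the same sign at -0.38, but its groups overlapped (limma adjusted p = 0.458 over all probe sets). The dimmest Hadhb probe set read 39.9, 33.5 and 127.4 in deficient and 39.8, 56.3 and 101 in wild type libraries, with a fold change of -0.08.

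Across the 17 member probe sets that passed the filter on low signal, 0 passed the test over all probe sets, where 1.41% were called. Only Cpt2 and Hadhb, each by its brightest probe set, had a 95% interval that left out 0.

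**Figure D2:**
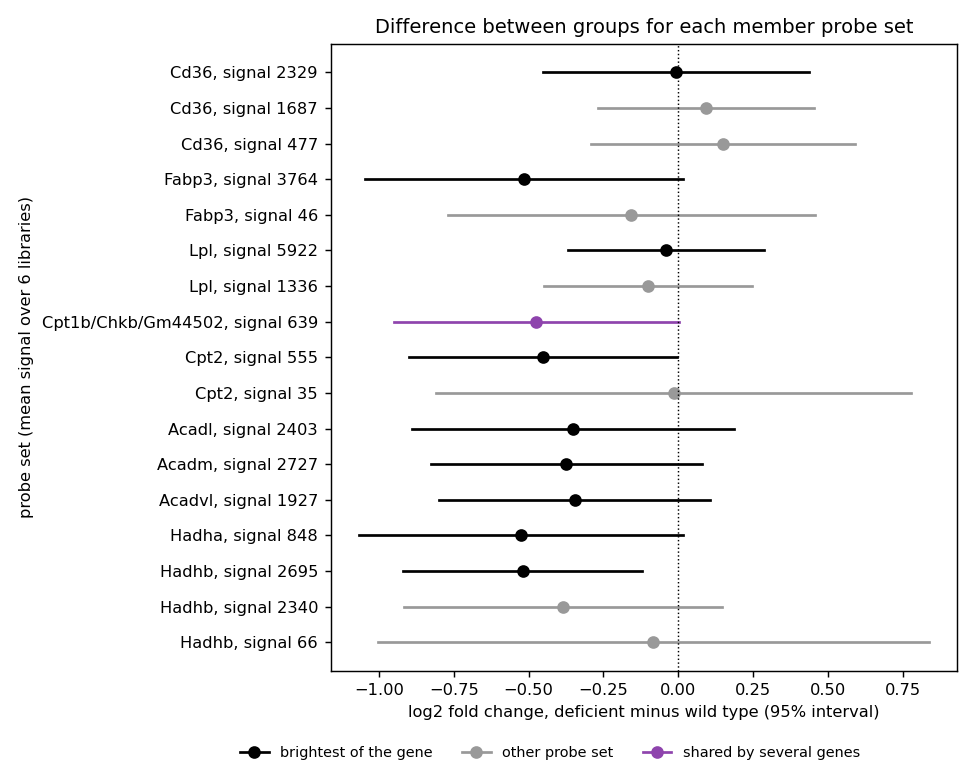
Log2 fold change, deficient minus wild type, with its 95% interval for each of the 17 member probe sets tested, labelled by gene and mean signal over the 6 libraries. Black marks the brightest probe set of a gene, grey another probe set and purple the shared one, and the intervals of all but the brightest probe sets of Cpt2 and Hadhb reach 0.

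The libraries of the deficient group did not behave alike. Over the 9 genes the median share of the wild type mean was 61.5% in deficient replicate 1, 68.3% in deficient replicate 2 and 100.5% in deficient replicate 3. In wild type replicates 1, 2 and 3 it was 98.8%, 84.2% and 117%. Over all genes tested the same median stayed between 97.5% and 104% in all 6 libraries. Deficient replicates 1 and 2 each had 8 of the 9 genes below the lowest wild type value, and deficient replicate 3 had 2, Cpt2 and Hadhb. Among all genes tested, 30.9%, 27.8% and 34.0% lay below the lowest wild type value in deficient replicates 1, 2 and 3. Deficient replicate 3 was the highest of its group in 7 of the 9 genes and wild type replicate 3 the highest of its group in 8. Without deficient replicate 3, Fabp3 and Hadha were called, 2 of the 9 genes, where 5.03% of all genes were, 2.08% as lower, and the median over the 9 genes was -0.56.

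**Figure D3:**
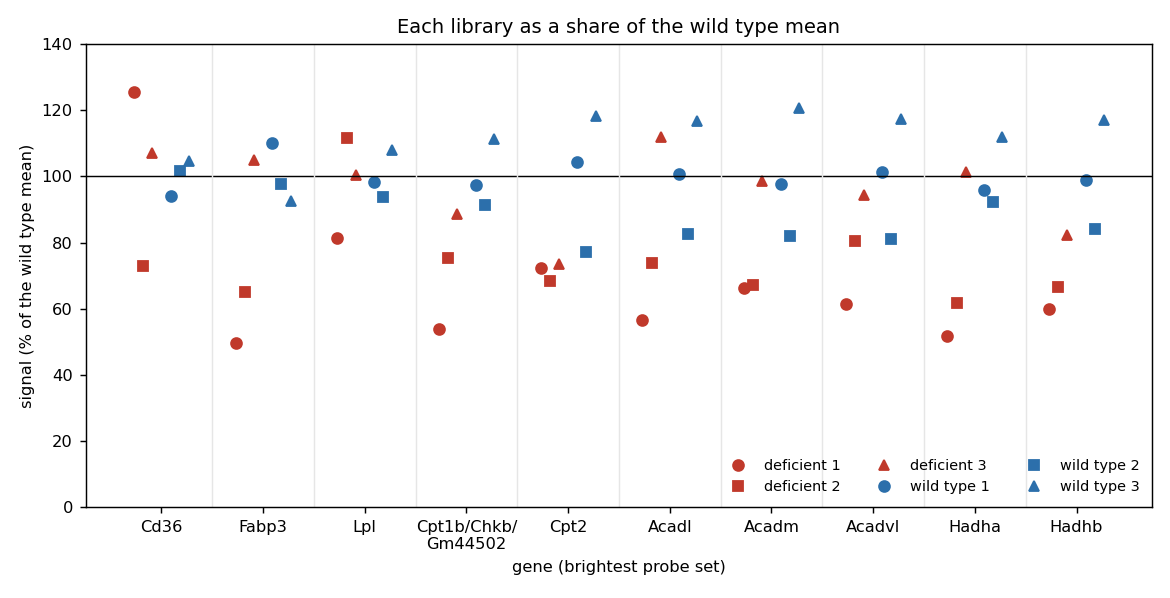
Signal of each library in percent of the wild type mean for the 9 genes and the shared probe set, deficient in red left of wild type in blue, with symbols for replicates 1 to 3. Deficient replicates 1 and 2 lie at 80.6% or below in all but Cd36 and Lpl, while deficient replicate 3 ranges from 73.5% for Cpt2 to 112% for Acadl.

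Deficient replicate 3 and wild type replicate 3 were also the libraries without Y-linked signal, so the groups were compared within each kind of library. Between the libraries with Y-linked signal, 2 per group, the median log2 difference over the 9 genes was -0.42, with 9 of 9 negative (46.2% of all genes were). Without deficient replicate 1, which also had Xist signal, that median was -0.41 with 8 of 9 negative, an alternative chosen after seeing the data. Between deficient replicate 3 and wild type replicate 3 it was -0.14, with 7 of 9 negative (51.1% of all genes were). Fabp3 had the widest gap between these values, -0.86 with Y-linked signal and 0.18 without. Hadhb was even, at -0.53 and -0.50, and Cpt2 lay at -0.34 and -0.67. Within the deficient group the library without Y-linked signal lay above the mean of the others by a median of 0.42, and within the wild type group by 0.35. Over all genes tested these 2 medians were -0.03 and 0.01. With Y-linked signal as a block, 1 of the 9 genes was called, Hadhb as lower (limma adjusted p = 0.0363), where 8.73% of all genes were called and 4.59% as lower. With 1 library per group lacking the signal, whether it alters the difference was not tested.

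**Figure D4:**
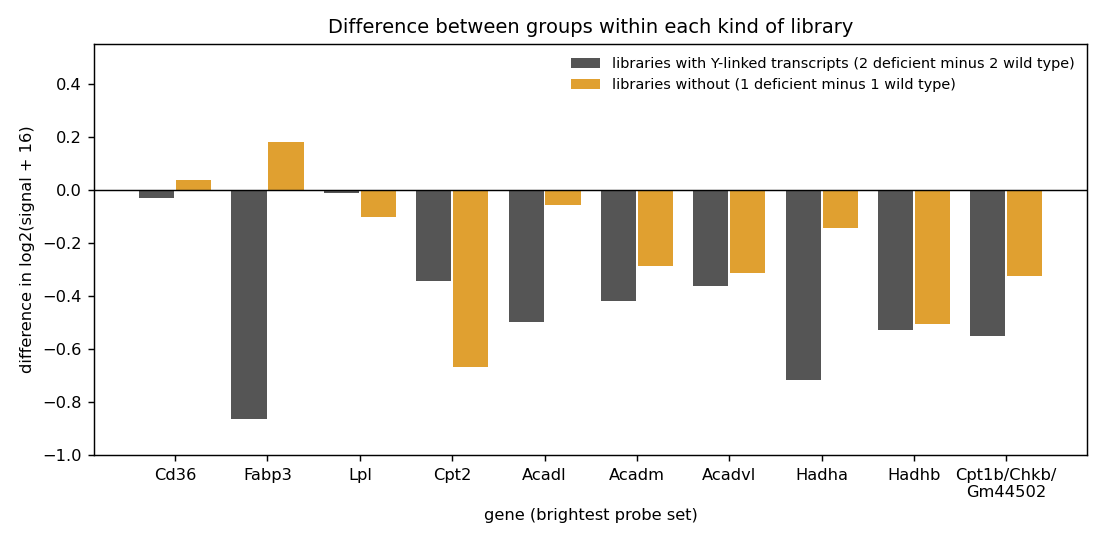
Difference in log2(signal + 16), deficient minus wild type, for each gene and the shared probe set. Grey bars compare the 2 deficient with the 2 wild type libraries that had Y-linked signal and orange bars compare the 1 deficient with the 1 wild type library that lacked it, and Fabp3 is the gene with the widest gap between its bars.

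Some of these genes are also active in other cells of the tissue. Brown adipocytes, which burn fatty acids for heat, had a summed marker signal (6 of 6 markers on the array) of 499.9 to 584.9 in deficient and 998.1 to 2682 in wild type libraries. Ucp1, their uncoupling protein, read 43.8, 12.7 and 43.7 in deficient libraries, against 1033.4, 356.7 and 1481.2 in wild type libraries. Of the 6 brown adipocyte markers 4 were tested, and by limma Ucp1 and Cidea fell, Dio2 rose and Elovl3 did not pass. Of all genes tested, 1.25% were called higher and 1.44% lower, the shares to set beside each marker count here. Dio2, a deiodinase that activates thyroid hormone, read 191.7, 174.5 and 90.8 in deficient libraries, against 70.3, 34.2 and 29.1 in wild type libraries (log2 fold change 1.48, limma adjusted p = 0.0453). Deficient replicate 3 had the lowest sum of those markers in its group and was highest of its group in 7 of the 9 fatty acid genes. That sum includes Dio2, lowest in this library at 90.8, while its Ucp1 (43.7) was close to that of deficient replicate 1 (43.8). In the wild type group, replicate 2 had the lowest sum and was lowest in 7 of the 9. Wild type replicate 3 had the highest sum, 2682, and was highest in 8 of the 9. White adipocyte markers (4 of 6 on the array) summed to 2256.7 to 6364.8 in deficient and 3562.7 to 5226.3 in wild type libraries, with the lowest value in deficient replicate 3. Macrophages, which make Lpl and Cd36 too, had marker sums of 4965.4, 3520.1 and 2288.3 in deficient libraries (7 of 7 on the array). In wild type libraries the sums were 1820.9, 1455.8 and 1317.2. By limma 2 of these 7 markers rose and 5 did not pass. Capillary endothelium, where Cd36 is also found, had a sum of 1154.2 to 1691.9 in deficient and 1372.4 to 2105.7 in wild type libraries (7 of 7 on the array). Slow and oxidative fibre markers (6 of 6 on the array) summed to 12878.1, 21029.6 and 22602.2 in deficient libraries. In wild type libraries they summed to 13101.5, 10774.1 and 17358.5. Their sum was thus highest in replicate 3 of both groups, and lowest in deficient replicate 1 and wild type replicate 2. Deficient replicate 1 was also the lowest of its group in 7 of the 9 fatty acid genes. By limma 1 of these 6 markers rose, Tnni1 (log2 fold change 1.34, limma adjusted p = 0.0197), and 5 did not pass. The median of these 6 was 0.74. Markers of embryonic and regenerating fibres (5 of 5) summed to 2073.2 to 4700.2 in deficient and 137.7 to 524.3 in wild type libraries. By limma 3 of the 5 rose and 2 did not pass, where 1.25% of all genes were called higher. Hair follicle and skin markers (6 of 6) summed to 161.6 to 278 in deficient and 223.8 to 1739.6 in wild type libraries, highest in wild type replicates 1 and 2. None of the 57 marker genes read was listed at 0 in any library. The part of these cells in the differences of the fatty acid genes was not tested.

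The rest of fatty acid metabolism was read from 8 lists with 85 genes, of which 80 were tested. By limma, 0 rose, 1 fell and 79 did not pass, beside 1.25% and 1.44% of all genes called higher and lower. The median over the 80 was -0.24, and 55 had a negative fold change, where 47.4% of all genes did. The gene that fell was Rxrg, a retinoid X receptor, the partner with which PPAR receptors bind DNA. Rxrg read 83.2, 134.4 and 71.8 in deficient libraries, against 297.2, 219.7 and 206.4 in wild type libraries. Its groups did not overlap, with a log2 fold change of -1.22 (SE 0.25, limma adjusted p = 0.0367). Leaving out 1 library ended this call in 5 of 6 cases, at adjusted p values of 0.0502 to 0.15, and kept it without deficient replicate 3 (adjusted p = 0.0408). It was also lost with no filter (0.0581), with every probe set tested on its own (0.052) and with no trend in the prior (0.0632). Its adjusted p ran between 0.008 and 0.511 across the 19 alternatives.

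Other regulators included Prkag3, a muscle subunit of AMP-activated protein kinase, the energy sensor that promotes fatty acid oxidation. Prkag3 read 335.8, 535.3 and 235 in deficient libraries, against 1013.7, 883.7 and 677.5 in wild type libraries, and just missed the threshold (log2 fold change -1.24, limma adjusted p = 0.0544). Its partner subunits Prkab2 and Prkaa2, named after their values were seen, had fold changes of -1.03 and -0.71 (limma adjusted p = 0.0618 and 0.11). The other 2 listed subunit genes, Prkaa1 and Prkab1, lay at 0.31 and -0.13 (limma adjusted p = 0.551 and 0.725). With Y-linked signal as a block, Prkag3, Prkab2 and Prkaa2 were called as lower (limma adjusted p = 0.00516, 0.0131 and 0.0185), where 4.59% of all genes were. Without deficient replicate 3, Prkab2 and Prkaa2 were called (limma adjusted p = 0.00646 and 0.0387), with robust priors Prkag3 (0.0481) and with the mean over probe sets Prkab2 (0.0241). The receptor genes Ppara, Ppard and Pparg and the coactivator gene Ppargc1a, also named after their values were seen, lay between -0.10 and 0.17.

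Genes working beside the members in the mitochondrial beta oxidation pathway numbered 13, all tested. By limma 0 rose, 0 fell and 13 did not pass, with 4 at an unadjusted p under 0.05, where 18.9% of all genes were, 9.49% as lower. The median over the 13 was -0.31, and 12 were negative, where 47.4% of all genes were. Etfa, a subunit of the flavoprotein that takes electrons from the acyl-CoA dehydrogenases, read 1502.5, 1247.4 and 1296 in deficient libraries, against 1735, 1770.7 and 2159.5 in wild type libraries (log2 fold change -0.48, limma adjusted p = 0.148). Acad11, another acyl-CoA dehydrogenase gene, had the smallest p of the 13, with a log2 fold change of -0.84 (limma adjusted p = 0.0786, and 0.0227 with Y-linked signal as a block). Peroxisomal beta oxidation, which shortens very long chains, gave 10 tested genes with a median of -0.38, where 0 passed and 2 had an unadjusted p under 0.05, the transporter gene Abcd2 at -1.02 and the racemase gene Amacr at -0.46 (limma adjusted p = 0.15 and 0.206). Of 3 genes of ketone body use, 0 passed and 3 were negative, with Acat1 at -0.49 and Oxct1 at -0.65 (limma adjusted p = 0.122 and 0.214). Acat1 read 1114.4, 1130.2 and 1126.8 in deficient libraries, against 1543.1, 1451.9 and 1771 in wild type libraries.

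Transport, binding and activation genes other than the members, 14 of 15 tested, had a median of -0.17. By limma 0 passed and 1 had an unadjusted p under 0.05, Gpihbp1, which holds Lpl at the capillary wall. Gpihbp1 read 332.2, 314.7 and 417.4 in deficient libraries, against 531.6, 527.2 and 490.1 in wild type libraries (log2 fold change -0.53, limma adjusted p = 0.15). All its deficient values were lower, while Lpl itself overlapped. The next smallest p was that of Got2 (-0.26, limma adjusted p = 0.416). Other carnitine shuttle genes, 7 of 7 tested, had a median of -0.02, with 0 passing and 0 at an unadjusted p under 0.05 by limma. Cpt1a, the form of liver and other tissues, read 113.8, 109.5 and 147.1 in deficient libraries and 107, 70.5 and 104.1 in wild type libraries (0.35, limma adjusted p = 0.414), and Crat, carnitine acetyltransferase, lay at -0.39 (limma adjusted p = 0.343).

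Lipid droplet and lipolysis genes, 11 of 11 tested, had a median of -0.17, with 0 passing and 1 at an unadjusted p under 0.05 by limma. That was Dgat1, which makes triglyceride, at 286, 389.2 and 320.7 in deficient libraries, against 220.4, 129.4 and 212.8 in wild type libraries (0.80, limma adjusted p = 0.108). Mgll, a monoglyceride lipase gene, lay at -0.42 (limma adjusted p = 0.295). Of the other PPAR target genes of muscle, 6 of 8 were tested and had a median of 0.31, with 0 passing and 0 at an unadjusted p under 0.05 by limma. Acot1, a thioesterase gene, lay at 0.70 and the uncoupling protein gene Ucp3 at -0.81 (limma adjusted p = 0.358 and 0.36).

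**Figure D5:**
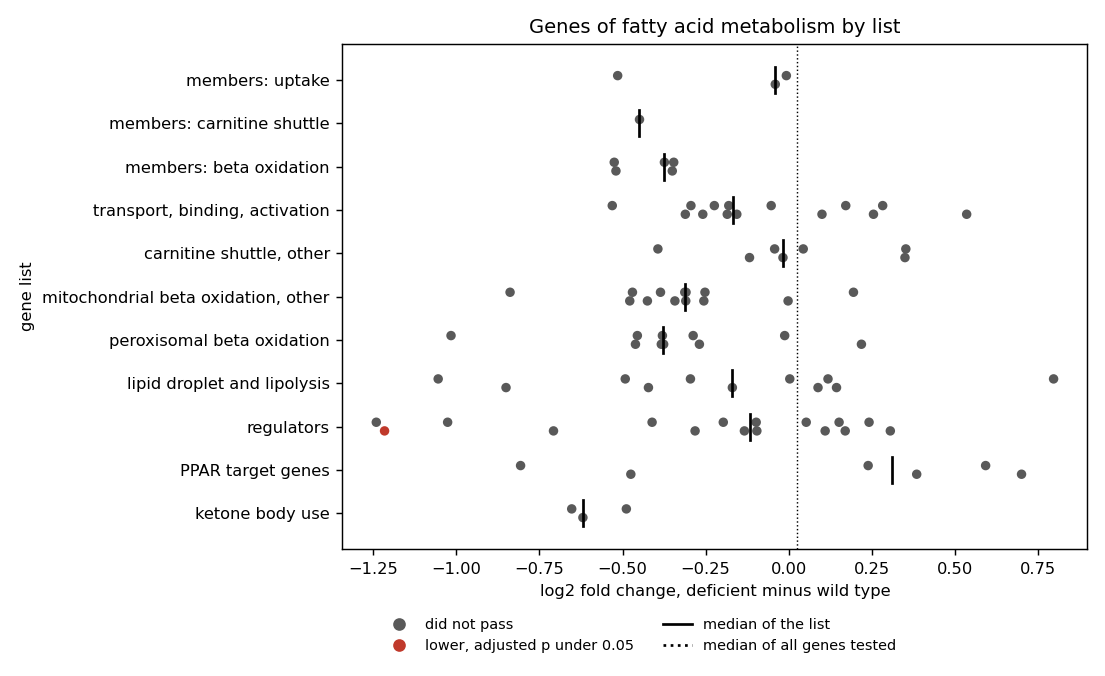
Log2 fold change, deficient minus wild type, of every tested gene of the member and other fatty acid lists, 1 point per gene. Bars are list medians, the dotted line is the median of all genes tested (0.02), and Rxrg at -1.22 is the only gene that passed.

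RefSeq promoter windows of 300 bases were searched on both strands for 8 of the 10 genes, all but Lpl and Cpt1b. The letters AGGTCA, the half-site bound by many nuclear receptors, were found in the windows of Acadm, Acadvl and Cd36, 3 of 8, and in 16.3% of 32851 mouse promoter windows. Each match is shown in capitals with up to 10 flanking bases, along the strand of its gene. Whether any receptor binds at these matches was not tested. TGACCT is the same half-site on the other strand.
Acadm: gTGACCTtcgggctccg
Cd36: ctgcactttaTGACCTgagattttca
Acadvl: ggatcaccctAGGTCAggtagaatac
The Cd36 window belongs to a start inside the annotated gene and not to its outermost one. The Acadm match lies at chr3:153944877-153944893, that of Cd36 at chr5:17836109-17836134 and that of Acadvl at chr11:70015500-70015525, flanks included, in GRCm38.p6 with all 3 genes on the minus strand. A direct repeat of 2 half-sites 1 base apart, AGGTCANAGGTCA, which contains AGGTCA, was found in 0 of 8 windows and in 0.0396% of all. GGGCGG, the GC box, was in 5 of 8 windows, those of Acadl, Cpt2, Cd36, Hadha and Hadhb, and in 35.7% of all. In the stretch shared by Hadha and Hadhb, the same GC box is read by both windows. TATAAA was in 0 of 8 windows and in 13.6% of all.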

How the data were processed

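Hind limb muscle RNA of 3 laminin alpha 2 chain deficient and 3 wild type mice was read on Affymetrix arrays from biotinylated cRNA, per the labels. The authors deposited a linear signal intensity for each of 45101 probe sets and array, made by an algorithm that none of the labels names. Without the lowest and highest 2% the array means were 99.96 or 99.97, so the arrays had been scaled. Groups come from sample titles.

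Symbols came from the platform annotation, updated through Entrez identifiers to RefSeq genes of GRCm38.p6 (34741 of 34945 probe sets with 1 symbol). Values were taken as log2(signal + 16) with no further normalization, since the lowest and highest array medians differed by 0.226 on this log2 scale. Probe sets with a mean signal below the 40th percentile (15) were left out. The brightest remaining probe set stood for its gene. The test was that of limma 3.58.1 under R 4.3.3 (lmFit, eBayes with trend, two-sided), over 13104 genes and, for single probe sets, over 27026 probe sets. All adjusted p values of genes are from the gene fit. On 10 simulated data sets of 13104 genes, this test recovered 47.6% of 2-fold and 96.8% of 4-fold changes, and 6.21% of its calls were unchanged genes. Recovery was not measured for smaller changes, such as those of the 9 genes (log2 fold changes of -0.53 to -0.01). Replicates are separate mice per the labels, and their number limits precision.

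The genes, lists and alternatives were chosen with earlier results of these data known. Named genes are all members and, of each list, every called gene and the 2 with the smallest p. The other AMP-activated protein kinase subunits, the PPAR and Ppargc1a genes and the marker genes were named after their values were seen. Same-numbered libraries deviated together with correlations of 0.146, 0.0674 and 0.298, so numbers were not taken as pairs. Alternatives were other normalizations, pseudocounts, filters, probe set rules and priors, a replicate block, a block for Y-linked signal (Eif2s3y above 100) and libraries left out.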

Additional observations from a re-analysis of the deposited data

How the results depend on the processing

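The median of the 9 genes stayed negative under all 19 alternatives, from -0.59 to -0.23, and with 1 library left out from -0.56 to -0.23. Genes called among the 9 numbered 0 in the reported fit and in 17 alternatives, 1 as lower with the block for Y-linked signal, and 2 as lower without deficient replicate 3, with 0 to 2 over the libraries left out. Of their probe sets 0 were called, with 0 to 1 over the libraries left out (Fabp3 without deficient replicate 3). The genes at an unadjusted limma p under 0.05, 2 in the reported fit, numbered 0 with the mean over probe sets and without wild type replicate 3. They numbered 5 with median centring and with the replicate block, 6 with the block for Y-linked signal and 7 without deficient replicate 3. With the mean over probe sets, Cpt2 lay at -0.23 and Hadhb at -0.33. Cd36 turned positive under quantile normalization (0.12), with the mean over probe sets (0.078) and without deficient replicate 2 (0.21), wild type replicate 2 (0.0039) and wild type replicate 3 (0.025), in a range of -0.17 to 0.21 over the libraries left out. Lpl turned positive under quantile normalization (0.023) and without deficient replicate 1 (0.085) and wild type replicate 3 (0.015), in a range of -0.14 to 0.085 over the libraries left out. The cause was not tested.

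Of the other list genes, 1 was called, as lower. That count was 0 without a filter, with every probe set tested on its own, without a trend and without wild type replicates 1 and 2, 2 with the mean over probe sets (Rxrg, Prkab2) and with robust priors (Rxrg, Prkag3), 5 with the replicate block (Rxrg, Prkag3, Prkab2, Prkaa2 and Acad11), 6 with the block for Y-linked signal (these 5 and G0s2), and 0 to 3 over the libraries left out, all as lower. Genes called in all numbered 353 in the reported fit, 216 without a filter, 159 without a trend, 855 with the replicate block, 1144 with the block for Y-linked signal, and 64 to 665 over the libraries left out. Without wild type replicates 1 and 2, where the lone wild type library is assumed to vary like the deficient ones, 21 were called. The replicate block called 0 of the 9 genes (smallest adjusted p 0.0656).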
